A study of Mus musculus with 12 samples.

Results

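The genes that make, conjugate and carry bile acids were examined in mouse liver at 3 ages. The set held 10 of the 53465 genes of the count table, and all 10 had counts in every liver. Its genes were chosen by name for their place in the pathway, with earlier results of these data known. It comprised the synthesis enzymes Cyp7a1, Cyp8b1, Cyp27a1 and Akr1d1, the conjugation enzymes Slc27a5 and Baat, the transporters Slc10a1 and Abcb11 and the nuclear receptors Nr1h4 and Nr0b2. RNA-seq read counts came from 12 livers of mice labelled C57BL/6N, each from 1 animal, with 4 young animals of 3 months, 4 middle-aged of 12 months and 4 aged of 18 months. No genotype or treatment is given for any group, so the groups differ by age alone as far as the labels go. The study's methods describe its own mice as healthy males fed a standard diet without restriction. Whether these 12 libraries come from those mice is uncertain, since the methods cite a public atlas for RNA-seq of 3 ages. The time of day is not given in the sources used here. The comparison of ages asks how steady-state transcript levels change in the ageing liver.

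Bile acids are made from cholesterol in hepatocytes and are the main route by which cholesterol leaves the body. In the classic pathway Cyp7a1 hydroxylates cholesterol first and sets the rate, and Cyp8b1 then decides how much cholic acid is formed. Cyp27a1 opens the alternative pathway and acts on the side chain. The products are linked to coenzyme A by Slc27a5, joined to taurine or glycine by Baat, pumped into bile by Abcb11 and taken back up from portal blood by Slc10a1. When bile acids accumulate they bind the receptor Nr1h4 (FXR), which induces Abcb11 and the repressor Nr0b2 (SHP). Nr0b2 in turn limits transcription of Cyp7a1 and Cyp8b1. Both Cyp7a1 and Nr0b2 are known to follow a daily rhythm and the feeding state.

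Stretches around annotated transcript starts (300 bases, from 250 before to 50 after each) were read from RefSeq on GRCm38.p6. Of the 10 genes, 7 had at least 1 window. Cyp7a1, Slc27a5 and Baat had none, so their promoters were not read. The promoters of Abcb11 and Nr0b2 are shown because Abcb11 is the textbook target of FXR and Nr0b2 is the repressor whose level varied widely between livers. In Abcb11 the capitals mark a match, with 1 letter of difference, to AGGTCANTGACCT, a pair of facing AGGTCA hexamers with 1 base between them, which is the element that FXR binds together with its partner RXR. In Nr0b2 the capitals mark CACGTG, the E-box bound by clock proteins.
Abcb11, chr2:69342567-69342866, minus strand: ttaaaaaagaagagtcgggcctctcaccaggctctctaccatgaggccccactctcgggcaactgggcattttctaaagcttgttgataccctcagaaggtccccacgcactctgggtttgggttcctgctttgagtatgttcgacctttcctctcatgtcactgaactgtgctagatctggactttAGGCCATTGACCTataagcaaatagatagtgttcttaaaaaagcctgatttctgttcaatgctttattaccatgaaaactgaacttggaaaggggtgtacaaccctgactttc
Nr0b2, chr4:133553126-133553425, plus strand: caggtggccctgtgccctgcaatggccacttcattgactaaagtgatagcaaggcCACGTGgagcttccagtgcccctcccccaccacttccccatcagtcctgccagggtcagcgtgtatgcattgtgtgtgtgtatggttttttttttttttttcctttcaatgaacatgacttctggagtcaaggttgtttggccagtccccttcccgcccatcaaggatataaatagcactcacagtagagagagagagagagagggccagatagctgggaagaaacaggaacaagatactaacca
The Abcb11 match lay 63 to 51 bases before the start and read AGGCCATTGACCT. Of 32851 windows of the same length, 0.0822% held the element with at most 1 difference on either strand and 0.00913% held it exactly. The Nr0b2 E-box lay 195 to 190 bases before the start, and 7.15% of all windows held 1. A single AGGTCA on either strand, found in 16.3% of windows and overlapping the paired element in Abcb11, was present in windows of Abcb11, Akr1d1, Nr1h4 and Slc10a1. The matching windows of Nr1h4 (chromosome 10, 89506609 to 89506908) and Slc10a1 (chromosome 12, 80968030 to 80968329) lay inside the gene spans given below. They are thus at internal transcript starts and not at the outer start of the gene. CAAGGTCA, the site of the receptor LRH-1, occurred in 1.56% of windows, and the D-box TTATGTAA, the site of Dbp, in 0.938%. Neither matched a window of the 7 genes read, and Cyp7a1 was not examined for either. Such matches describe letters and not binding.

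Libraries held between 8124312 and 10527159 counts in genes, so that 3 counts, taken as the floor of detection, corresponded to 0.285 to 0.369 CPM (counts scaled to one common library total). Young replicate 3 and middle-aged replicate 1 had more genes detected (22284 and 19982) than the remaining libraries, and in young replicate 2 mitochondrial transcripts took 19.2% of counts against 5.48% to 10.7% in the others. The synthetic spike-in RNAs fell into a pair of profiles, replicates 1 and 2 of every age (called set A here) and replicates 3 and 4 (set B), whose correlations were 0.997 or more inside a set and 0.925 or less across the sets. What distinguished the sets is not given, so age differences were also computed within each set, with 2 livers per age. Hepatocyte markers led by Alb (albumin) summed to between 70936 and 107953 CPM in every liver, bile duct markers led by Spp1 to at most 49.0, and the ileal bile acid binding gene Fabp6 was at 0 throughout. In bulk liver, fewer cells of a type and less RNA per cell cannot be told apart.

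The 10 transcripts covered a wide range of levels. Per kilobase of exon, Slc27a5 stood highest with a mean of 3784 normalised counts over the 12 livers, followed by Cyp8b1 (2412), Cyp27a1 (2294), Slc10a1 (2212), Baat (1707), Abcb11 (1152), Akr1d1 (609), Nr1h4 (504), Nr0b2 (309) and Cyp7a1 (275). Ranges over the livers overlapped between all neighbours in this order except between Baat and Abcb11 and between Abcb11 and Akr1d1. The rate-limiting enzyme Cyp7a1 was thus the lowest by mean, at a level that overlapped that of Nr0b2.

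**Figure D1:**
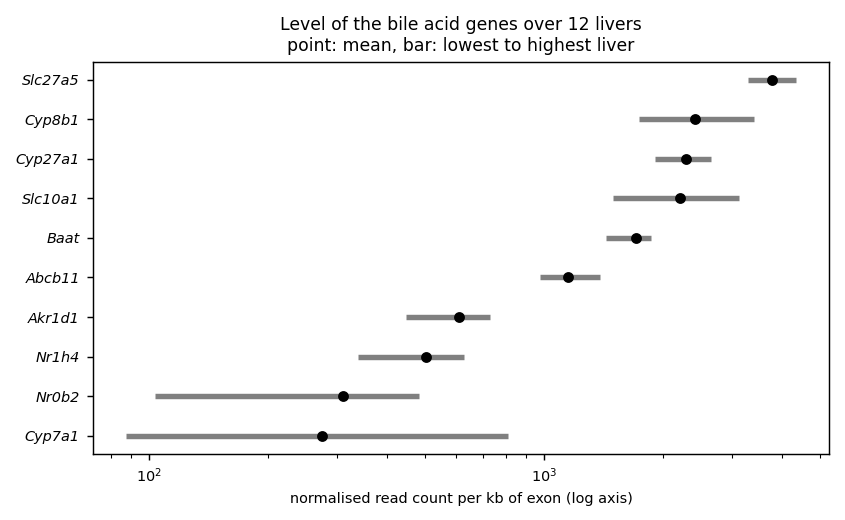
Level of each of the 10 genes in normalised counts per kilobase of exon on a log axis, as the mean (point) and the lowest and highest of 12 livers (bar). Slc27a5 is highest, and the bars of Cyp7a1 and Nr0b2 are the longest.

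The genes differed as much in how far they varied between livers of one age. Cyp7a1 had an SD of 0.76 on the log2 scale within ages, more than 98.7% of the 7146 genes that averaged 100 normalised counts or above, for which the median was 0.17. Nr0b2 followed with 0.57, more than 97.8% of those genes. Baat (0.11) and Slc27a5 (0.11), the conjugation enzymes, lay at the other end, above only 10.7% and 13.2% of genes. Between the lowest and the highest of the 12 livers the ratio was 9.28 for Cyp7a1, 4.67 for Nr0b2, 2.08 for Slc10a1 and 1.95 for Cyp8b1, and between 1.30 and 1.85 for the other 6 genes. Any age effect on Cyp7a1 or Nr0b2 therefore had to exceed a wider spread than one on Baat.

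None of the 10 genes passed an adjusted p of 0.05 in DESeq2 between any pair of ages or across the 3 ages. Over all genes tested, 3.58% were called for aged against young, 6.41% for middle-aged against young, 1.14% for aged against middle-aged and 6.96% across the 3 ages, so that a set of 10 with no call is near these background shares. At an unadjusted p under 0.05 there was 1 gene for aged against young (Nr1h4), 1 for middle-aged against young (Nr0b2) and 2 for aged against middle-aged (Cyp7a1 and Nr0b2). edgeR and limma-voom also called 0 of 10 in each case, with 0 and 1, 0 and 1, and 2 and 2 genes at an unadjusted p under 0.05 in that order. The median log2 fold change of the 10 genes was 0.056, 0.15 and -0.015 in these comparisons, against medians over all genes tested of -0.00030, 0.0065 and 0.0050. These comparisons share livers, so their values are given side by side and are not independent.

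The 95% intervals of the fold changes show what sizes of change the data leave possible. Between aged and young livers the interval lay within 2-fold in either direction for 9 of 10 genes, the exception being Cyp7a1, and within 1.5-fold for 7. For both comparisons with middle-aged livers 8 genes had an interval within 1.5-fold, and those of Cyp7a1 and Nr0b2 reached beyond 2-fold. Over all livers, most of the pathway was thus measured closely enough to bound a mean change in liver transcript level. Cyp7a1 was not in any comparison, and Nr0b2 was not in those with middle-aged livers. These intervals pool both spike-in sets, and the fold changes of Slc10a1 and Nr1h4 differed between the sets, as given below.

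**Figure D2:**
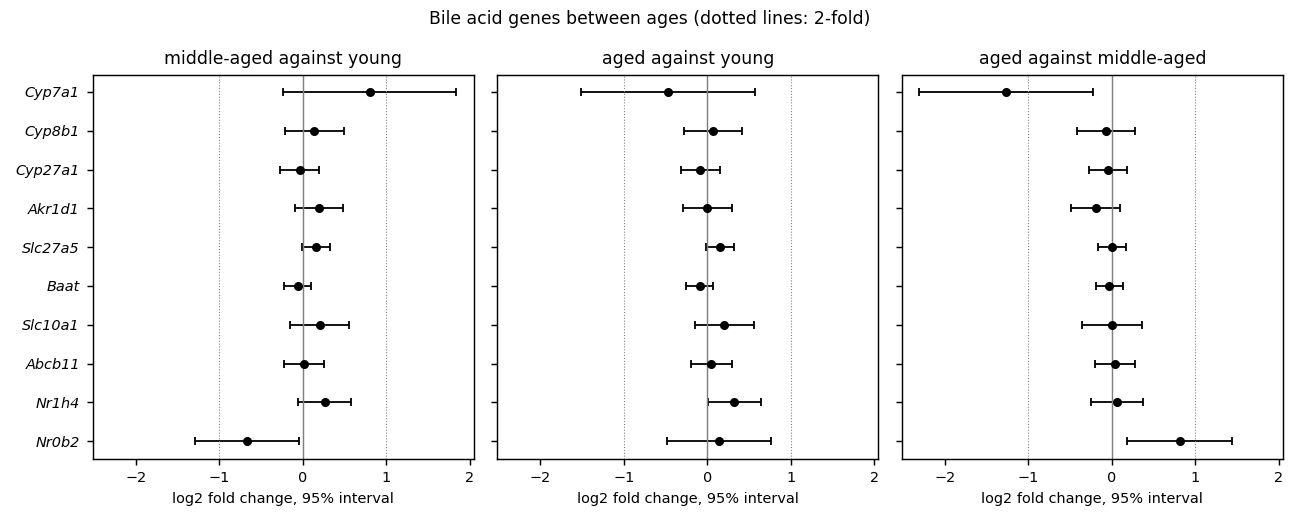
Log2 fold change of each gene between each pair of ages with its 95% interval from DESeq2 (12 livers, 4 per age), with dotted lines at 2-fold. Intervals of most genes lie between the dotted lines, while for Cyp7a1 and Nr0b2 they are wide and, between aged and middle-aged livers, lie on opposite sides of 0.

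Cyp7a1 (ENSMUSG00000028240, chromosome 4, 6265612 to 6275633, minus strand), cholesterol 7-alpha-hydroxylase, was at 730.3, 546, 1013 and 1682 normalised counts in the young livers, 1324, 3388, 671 and 1531 in the middle-aged livers and 365, 830.3, 852 and 818 in the aged livers, in the order of replicates 1 to 4 here and throughout. Middle-aged replicate 2 was the highest liver of all and aged replicate 1 the lowest, and the ranges of the 3 ages overlapped. Means were 993 ± 498, 1729 ± 1166 and 716 ± 234 normalised counts (mean ± SD, n = 4) at 3, 12 and 18 months. Aged livers held 0.414 times the level of middle-aged livers (95% interval 0.202 to 0.852), a log2 fold change of -1.27 (SE 0.53, adjusted p = 0.315 by DESeq2). Without middle-aged replicate 2 this difference was -0.71 (DESeq2 adjusted p = 0.726). For middle-aged against young it was 0.80 (SE 0.53, adjusted p = 0.388 by DESeq2), and 0.24 (DESeq2 adjusted p = 0.821) without that liver. Aged against young gave -0.47 (SE 0.53, adjusted p = 0.749 by DESeq2). The log2 fold change of middle-aged against young livers was 1.88 inside set A and -0.30 inside set B, neither passing the test (DESeq2 adjusted p = 0.213 and 0.891).

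Transcripts of the circadian clock differed between the same groups. Dbp, a clock output factor that binds the D-box, was at 188, 220.3, 173 and 129.8 normalised counts in the young livers, 908, 657, 503 and 687 in the middle-aged livers and 173, 157, 18.4 and 52.7 in the aged livers. All middle-aged livers were above all young and aged ones, and aged replicate 3 was lowest. Arntl, which encodes the clock activator BMAL1, was at 64.8, 58.6, 154 and 136 normalised counts in the young livers, 34.8, 70.9, 88.3 and 44.1 in the middle-aged livers and 106, 121, 249 and 228 in the aged livers, highest in aged replicates 3 and 4. For aged against middle-aged livers, 3 of 15 clock genes tested passed as higher and 6 as lower in DESeq2, including Arntl at 1.56 (SE 0.39, adjusted p = 0.0117 by DESeq2) and Dbp at -2.78 (SE 0.56, adjusted p = 3.55e-04 by DESeq2), where 0.537% and 0.606% of all genes did so. For middle-aged against young 5 of 16 were higher and 1 lower, against 3.51% and 2.9% of all genes, and for aged against young 1 of 17 was higher, against 1.87%. edgeR called 1 higher and 4 lower for aged against middle-aged, 3 higher and 1 lower for middle-aged against young and 0 for aged against young livers, where 9 of the 17 had an unadjusted edgeR p under 0.05 and limma-voom called 1. The summed level of the 17 genes was 327 to 411 CPM in young, 514 to 613 in middle-aged and 377 to 450.0 in aged livers. The part of sampling time in the levels of Cyp7a1 and Nr0b2 was not tested.

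Cyp8b1 (ENSMUSG00000050445, chromosome 9, 121914356 to 121916305, minus strand), the 12-alpha-hydroxylase that leads to cholic acid, was at 4237, 3393, 4239 and 6061 normalised counts in the young livers, 4794, 6632, 4319 and 4009 in the middle-aged livers and 5075, 4593, 4383 and 4709 in the aged livers. Young replicate 4 and middle-aged replicate 2 were high, the same livers in which Cyp7a1 was highest for their age, and the groups overlapped. Its SD in the aged group was 289.9 normalised counts against 1125 in the young and 1174 in the middle-aged group. Log2 fold changes were 0.07 (SE 0.18, adjusted p = 0.919 by DESeq2) for aged against young, 0.14 (SE 0.18, adjusted p = 0.715 by DESeq2) for middle-aged against young and -0.07 (SE 0.18, adjusted p = 0.961 by DESeq2) for aged against middle-aged livers.

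Cyp27a1 (ENSMUSG00000026170, chromosome 1, 74713574 to 74737892, plus strand), the mitochondrial sterol 27-hydroxylase of the alternative pathway, was at 5510.1, 4739, 4694 and 5535 normalised counts in the young livers, 4502, 5690.3, 4752 and 5042 in the middle-aged livers and 5751, 5129, 4161 and 4301 in the aged livers. The groups overlapped almost fully and no liver stood apart. Its log2 fold change between aged and young livers was -0.08 (SE 0.12, adjusted p = 0.817 by DESeq2), with a 95% interval of -0.32 to 0.15. Akr1d1 (ENSMUSG00000038641, chromosome 6, 37530173 to 37568815, plus strand), which reduces the steroid ring on the way to the primary bile acids, was at 1915, 1291, 1768 and 1745 normalised counts in the young livers, 1897, 2109.8, 1692 and 2012 in the middle-aged livers and 1390.0, 1456, 1920.0 and 1959 in the aged livers. Young replicate 2 and aged replicates 1 and 2 were low and the groups overlapped. Its log2 fold change was 0.00 (SE 0.15, adjusted p = 0.999 by DESeq2) for aged against young and 0.20 (SE 0.15, adjusted p = 0.459 by DESeq2) for middle-aged against young. The gene model Gm7463 overlaps Akr1d1 on the same strand, so reads could be shared there.

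The conjugation enzymes were the steadiest. Slc27a5 (ENSMUSG00000030382, chromosome 7, 12988346 to 12998192, minus strand), the bile acid coenzyme A ligase, was at 9251, 8006, 8097 and 8964 normalised counts in the young livers, 8886, 10589.6, 9762 and 8918 in the middle-aged livers and 10208, 10149, 8827 and 9057 in the aged livers. Young replicates 2 and 3 were the lowest livers, while the ranges of the ages overlapped. Its log2 fold change was 0.16 (SE 0.09, adjusted p = 0.37 by DESeq2) for aged against young and 0.15 (SE 0.09, adjusted p = 0.287 by DESeq2) for middle-aged against young, with 95% intervals of -0.01 to 0.32 and -0.02 to 0.32. Baat (ENSMUSG00000039653, chromosome 4, 49489422 to 49506557, minus strand), the amino acid transferase that completes conjugation, was at 3421, 3273, 3614 and 3404 normalised counts in the young livers, 3545, 3411, 3163 and 3044 in the middle-aged livers and 3376, 3476, 2782 and 3251 in the aged livers. Aged replicate 3 was the lowest liver, and the groups overlapped. Its log2 fold change was -0.09 (SE 0.08, adjusted p = 0.67 by DESeq2) for aged against young, with an interval of -0.25 to 0.07, and the 2 comparisons with middle-aged livers gave -0.06 and -0.03.

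Of the transporters, Abcb11 (ENSMUSG00000027048, chromosome 2, 69238282 to 69342616, minus strand), the canalicular bile salt export pump whose promoter is printed above, was at 7134, 5026, 6036 and 5181 normalised counts in the young livers, 5549, 6453, 6036 and 5544 in the middle-aged livers and 5052, 6692, 6322 and 6094 in the aged livers. Young replicate 1 was highest and young replicate 2 lowest, so that both extremes lay in 1 age group. Its log2 fold change was 0.05 (SE 0.12, adjusted p = 0.914 by DESeq2) for aged against young, 0.01 for middle-aged against young and 0.03 for aged against middle-aged livers. The gene models Gm13613 and Gm13614 lie antisense to it, and whether counting used strand is not given.

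Slc10a1 (ENSMUSG00000021135, chromosome 12, 80953183 to 80968705, minus strand), the sodium-dependent uptake carrier NTCP, was at 5201, 4079, 4386 and 4020.3 normalised counts in the young livers, 5393, 5687, 4418 and 4847 in the middle-aged livers and 3291, 4669.8, 5530.0 and 6859 in the aged livers. The aged livers spanned both the lowest (replicate 1) and the highest value (replicate 4) of all 12, with set A low and set B high. Means were 4422 ± 544, 5086 ± 565 and 5087 ± 1499 normalised counts (mean ± SD, n = 4) at 3, 12 and 18 months. The log2 fold change for aged against young was 0.20 (SE 0.18, adjusted p = 0.655 by DESeq2) over all livers. It was -0.22 within set A and 0.56 within set B, the latter with a DESeq2 adjusted p of 7.87e-04. Aged against middle-aged livers differed by -0.47 in set A and 0.43 in set B (DESeq2 adjusted p = 0.362 and 0.0387). The difference between the sets for this pair of ages, chosen for testing after the data were seen, was 0.90 (SE 0.25, adjusted p = 0.0432 by DESeq2), where 124 of 12454 genes were called.

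Nr1h4 (ENSMUSG00000047638, chromosome 10, 89454234 to 89533585, minus strand), the bile acid receptor FXR, was at 781, 890.2, 1139.8 and 1225 normalised counts in the young livers, 1387, 1316, 1038 and 1098 in the middle-aged livers and 1016, 1314, 1272 and 1448 in the aged livers. Young replicates 1 and 2 were the lowest livers and aged replicate 4 the highest, and the groups overlapped. The log2 fold change for aged against young was 0.32 (SE 0.16, adjusted p = 0.295 by DESeq2), with a 95% interval of 0.01 to 0.64, and it missed the threshold in edgeR too (adjusted p = 0.299). Middle-aged livers of set A differed from the young ones of that set by 0.70 (adjusted p = 0.0305 by DESeq2), and those of set B by -0.16 (adjusted p = 0.713). The sets differed by -0.84 (SE 0.22, adjusted p = 0.0352 by DESeq2), where 55 of 13005 genes were called. The overall value for this pair, 0.26, thus averages a higher level in middle-aged livers of set A and no detectable difference in set B.

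Nr0b2 (ENSMUSG00000037583, chromosome 4, 133553376 to 133556536, plus strand), the repressor SHP and a target of FXR, was at 182, 406, 415 and 533 normalised counts in the young livers, 289.9, 340.3, 219 and 117 in the middle-aged livers and 548, 361, 374 and 413 in the aged livers. Middle-aged replicate 4 and young replicate 1 were lowest, aged replicate 1 highest, and the aged range lay wholly above the middle-aged one. It was the single gene of the 10 whose groups did not overlap in a comparison, and for that pair of ages the ranges of 6.55% of all genes tested did not overlap. For aged and for middle-aged against young livers it was 0 of 10, where 7.53% and 16% of all genes tested did not overlap. Means were 384 ± 147, 242 ± 96.7 and 424 ± 85.5 normalised counts (mean ± SD, n = 4) at 3, 12 and 18 months. Aged livers held 1.75 times the level of middle-aged livers (95% interval 1.14 to 2.71), a log2 fold change of 0.81 (SE 0.32, adjusted p = 0.267 by DESeq2). Middle-aged against young gave -0.67 (SE 0.32, adjusted p = 0.194 by DESeq2), which became -0.90 (DESeq2 adjusted p = 0.0262) without young replicate 1, the low young liver. Aged against young gave 0.14 (SE 0.32, adjusted p = 0.896 by DESeq2).

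Of the fits within a set, only those of set B called Nr0b2. Within set B the log2 fold change of middle-aged against young livers was -1.50 (DESeq2 adjusted p = 4.76e-06) and that of aged against middle-aged livers 1.23 (DESeq2 adjusted p = 5.36e-04). In set A the same comparisons gave 0.11 and 0.53, without a call. The difference between the sets itself was -1.60 (SE 0.49, adjusted p = 0.154 by DESeq2) for middle-aged against young and 0.70 (SE 0.49, adjusted p = 1 by DESeq2) for aged against middle-aged, so it was not shown. Each set holds 2 livers per age.

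**Figure D3:**
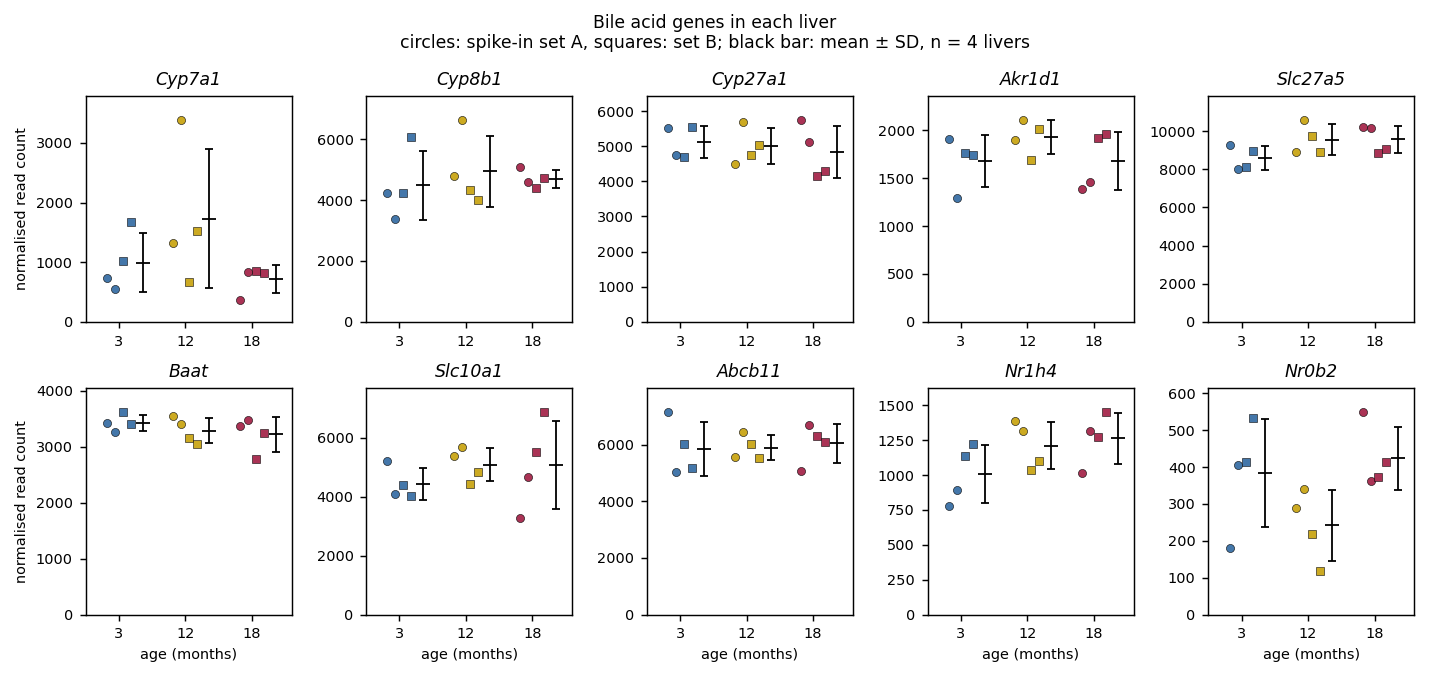
Normalised counts of the 10 genes in each liver at 3, 12 and 18 months (circles, set A, and squares, set B), with the mean and SD of 4 livers per age. The axes start at 0. Cyp7a1 has a single high middle-aged liver at 3388 normalised counts, and Nr0b2 is the panel in which the aged livers all lie above the middle-aged ones.

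Since Nr0b2 represses Cyp7a1 and Cyp8b1, the relation between repressor and targets was examined over the 12 livers after removing the age means on the log2 scale. Nr0b2 and Cyp7a1 showed no inverse relation that could be detected (Pearson r = 0.229, exact permutation within ages p = 0.548, and Spearman rho = 0.252, p = 0.485). For Nr0b2 and Cyp8b1 r was 0.582 (exact permutation p = 0.120) and rho 0.692 (exact permutation p = 0.0350, 0.175 after adjustment), positive in sign. Without the pair of livers farthest from the median of the enzyme, r was 0.0520 and 0.293. When the means of age and set were both removed, r was -0.444 (exact permutation p = 0.281) for Cyp7a1 and 0.0919 (p = 0.812) for Cyp8b1. The sign for Cyp7a1 thus differed from that with age means alone removed. Neither value could be told apart from 0, and the difference between them was not tested.

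**Figure D4:**
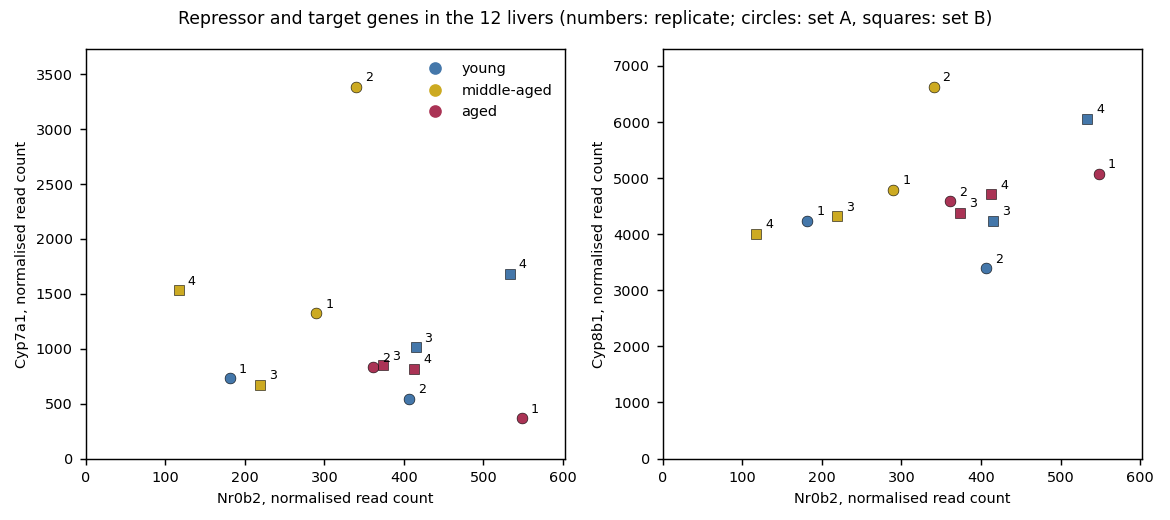
Cyp7a1 (left) and Cyp8b1 (right) against Nr0b2, all in normalised counts, for the 12 livers, coloured by age, with replicate numbers and with circles for set A and squares for set B. With age means removed r is 0.229 and 0.582, and middle-aged replicate 2 is high for both enzymes.

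Among the other pairs examined, Cyp7a1 and Cyp8b1 had r = 0.667 (exact permutation p = 0.0577, rho = 0.503, p = 0.134), which was 0.502 without the pair of livers farthest from the median of Cyp7a1. Abcb11 and Nr0b2, both FXR targets, had r = -0.462 (exact permutation p = 0.179, rho = -0.427, p = 0.198), which was -0.0630 without young replicate 1 and aged replicate 1. The export and uptake carriers Abcb11 and Slc10a1 had r = 0.604 (exact permutation p = 0.0543, rho = 0.587, p = 0.0919), which was 0.309 without the same livers. With the means of both age and set removed these 3 values of r were 0.458, -0.629 and 0.751 (exact permutation p = 0.375, 0.344 and 0.188). None of the 5 relations passed after Benjamini-Hochberg adjustment, the smallest adjusted p for r being 0.144.

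Ratios within a library do not depend on its scaling and describe how the pathway is balanced. The log2 ratio of Cyp8b1 to Cyp7a1 was 2.54, 2.63, 2.06 and 1.85 in the young, 1.86, 0.97, 2.68 and 1.39 in the middle-aged and 3.79, 2.47, 2.36 and 2.52 in the aged livers. Aged replicate 1 had the highest ratio and middle-aged replicate 2 the lowest, and the groups overlapped. The mean of the aged livers, 2.79 ± 0.67 (SD, n = 4), exceeded that of the middle-aged, 1.72 ± 0.74, by 1.06 (two-sided exact permutation p = 0.114, 0.343 adjusted over the 9 ratio tests). The ratio of Cyp7a1 to Cyp27a1, the entry enzymes of the classic and the alternative pathway, had a mean of -2.82 in aged and -1.76 in middle-aged livers, a difference of -1.06, with the same p values. For Slc10a1 to Abcb11, uptake against export, the aged and young means differed by 0.11 on the log2 scale (exact permutation p = 0.657). With 4 livers against 4 the smallest p this test can give is 0.0286.

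Over the 12 libraries, the genes whose log2 levels were most like that of Cyp7a1 among 7145 genes averaging 100 normalised counts or above were Slc19a2, a thiamine carrier (r = 0.880), Ttc13 (r = 0.828) and Dmd, the dystrophin gene (r = 0.821). Slc19a2 was at 672, 562, 719 and 718 normalised counts in the young livers, 725, 987, 749 and 806 in the middle-aged livers and 580.1, 728, 700.0 and 689 in the aged livers, with middle-aged replicate 2 highest. For Nr0b2 they were Orai1, a calcium channel subunit (r = 0.897), Dnttip2 (r = 0.892) and Nags, which makes the activator of the urea cycle (r = 0.866). Nags was at 640.1, 725, 771 and 804 normalised counts in the young livers, 736, 734, 592 and 585 in the middle-aged livers and 937, 845, 702 and 791 in the aged livers, lowest in middle-aged replicates 3 and 4 and young replicate 1. These correlations describe likeness over 12 libraries that share ages and sets.

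The wider bile acid pathway was followed through 45 further genes in 3 lists, 14 of synthesis, 15 of transport and 16 of regulation, of which 43 had at least 1 count. DESeq2 called 5 of the 38 with an adjusted p for aged against young (3 higher, 2 lower), 6 of 36 for middle-aged against young (3 higher, 3 lower) and 0 of 34 for aged against middle-aged, where 5 genes had an unadjusted p under 0.05. The shares over all genes were 1.87% higher and 1.71% lower in the first comparison and 3.51% and 2.9% in the second. In the third, 1.14% were called in either direction. Across the 3 ages 9 of the 45 were called, where 6.96% of all genes were. edgeR called 2, 2, 0 and 1 (background 1.42%, 2.31%, 0.107% and 1.93%), with 5 genes at an unadjusted p under 0.05 between aged and middle-aged livers. limma-voom called 5, 6, 0 and 9, and 356, 702, 58 and 667 among all genes. Over fits without 1 liver, the count of 5 for aged against young ranged from 2 (without aged replicate 3) to 9 (without aged replicate 1). Of all genes, these fits called 237 and 1291, against 484 with every liver. The count was 3 without young replicate 1, young replicate 3 or aged replicate 4, where 386, 336 and 321 of all genes were called. The count of 6 for middle-aged against young ranged from 3 (without middle-aged replicate 2) to 7 (without middle-aged replicate 1). Of all genes, these fits called 345 and 505, against 727 with every liver. In the same order of comparisons, the counts were 3 and 3 within set A, 10 and 2 within set B, and 3 and 12 with only the 2 ages compared. The calls over all genes were 139 and 251, 479 and 306, and 290 and 1166.

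In synthesis, Cyp7b1, the oxysterol 7-alpha-hydroxylase that follows Cyp27a1 in the alternative pathway, was at 4212, 5168, 4270.3 and 3085 normalised counts in the young livers, 1967, 1596, 2400.0 and 1668 in the middle-aged livers and 3329.8, 3032, 1296 and 1702 in the aged livers. Every middle-aged liver lay below every young one, while in the aged group replicate 1 lay in the young range, replicate 2 just under it and replicates 3 and 4 (set B) far below. It fell between 3 and 12 months to 0.456 of the young level (95% interval 0.321 to 0.648), a log2 fold change of -1.13 (SE 0.26, adjusted p = 0.00103 by DESeq2), a call kept in all 19 alternative fits. Aged livers were below young ones, with a difference of -0.84 (SE 0.26, adjusted p = 0.037 by DESeq2), but edgeR did not call this (adjusted p = 0.123), nor did DESeq2 within set A (-0.56, adjusted p = 0.149) or when young replicate 1, 2 or 3 or aged replicate 3 or 4 was left out (-1.06 to -0.64 over fits without 1 liver).

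Cyp2c70, which makes the muricholic acids particular to rodents, was at 9345, 11339, 9451 and 5525 normalised counts in the young livers, 5475, 4422, 5056 and 5149.5 in the middle-aged livers and 7663, 7733, 5423 and 6274 in the aged livers. The middle-aged livers lay together at the bottom, and of the young livers only replicate 4 came near them. It fell from 3 to 12 months, with a log2 difference of -0.83 (SE 0.18, adjusted p = 7.63e-04 by DESeq2), a call that edgeR shared (adjusted p = 0.0334) and that was absent within set B (-0.56, DESeq2 adjusted p = 0.449). The aged mean lay between those of the other groups, with no call against either over all livers. Aged against young was called at -0.57 without young replicate 4, and aged against middle-aged was called within set A at 0.64 (DESeq2 adjusted p = 0.0312).

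Akr1c6, an aldo-keto reductase of steroids, was at 15763, 17283, 14688 and 17069 normalised counts in the young livers, 12325, 12696, 11072 and 13268 in the middle-aged livers and 15866, 11568, 10407 and 12909.8 in the aged livers. All middle-aged livers were below all young ones. The difference of -0.39 (SE 0.12, adjusted p = 0.0275 by DESeq2) was not called by edgeR (adjusted p = 0.104), nor without young replicate 2 or 4 or middle-aged replicate 1, 2 or 3 (-0.44 to -0.34 over fits without 1 liver). Within sets A and B it was -0.40 and -0.39, without a call (DESeq2 adjusted p = 0.451 and 0.0823). Cyp46a1, cholesterol 24-hydroxylase and best known from brain, was near the floor in young livers and was at 5.31, 11.5, 2.37 and 4.88 normalised counts in the young livers, 26.8, 19.8, 14.1 and 13.0 in the middle-aged livers and 9.03, 27.9, 44.6 and 47.4 in the aged livers. Young replicate 3 held 2 counts, under the floor of 3, all aged livers exceeded the young mean, and the groups overlapped at aged replicate 1. Its log2 fold change for aged against young was 2.45 (SE 0.58, adjusted p = 0.0025 by DESeq2), which edgeR called too (adjusted p = 0.0397) and which within set A was 1.17 without a call. Hsd3b7, the dehydrogenase of the second step of synthesis, had 0 counts in every library, as had the transporter Slc51a. Each overlaps another gene model, whose part in these counts of 0 was not tested.

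In transport, Abcc3, an export pump of the blood-facing membrane, was at 1002, 636, 985 and 1573 normalised counts in the young livers, 1845, 2289, 1602 and 1703 in the middle-aged livers and 1593, 1999, 2164 and 1729.7 in the aged livers. All young livers lay below every later liver, replicate 4 by a narrow margin, and middle-aged and aged livers overlapped. It rose in both later ages, by 0.83 (SE 0.22, adjusted p = 0.00607 by DESeq2) at 12 months and 0.83 (SE 0.22, adjusted p = 0.00745 by DESeq2) at 18 months, but edgeR gave adjusted p values of 0.0582 and 0.0691. The call at 18 months was lost without aged replicate 3 (log2 fold change 0.76), and that at 12 months within set B (0.36). Abcc2, which exports conjugated anions into bile, was at 3295, 2175, 2379 and 2870.2 normalised counts in the young livers, 3334, 4267, 3891 and 4241 in the middle-aged livers and 2343, 3270.2, 3612 and 2989 in the aged livers. The middle-aged livers were all above the young ones, and the aged livers overlapped both. The difference at 12 months was 0.55 (SE 0.16, adjusted p = 0.0121 by DESeq2), with an edgeR adjusted p of 0.0676. The call was lost without young replicate 2 or 3 or middle-aged replicate 2 or 4 (0.47 to 0.67 over fits without 1 liver). It was also lost within set A (0.47, DESeq2 adjusted p = 0.534).

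Slco1a1, a sinusoidal organic anion carrier, was at 5519.7, 4404, 4815 and 4741 normalised counts in the young livers, 3958, 3564, 3805 and 3692 in the middle-aged livers and 3547, 4466, 2238 and 3046 in the aged livers. Aged replicate 3 was lowest and aged replicate 2 reached the young range. Aged livers were below young ones, with a log2 difference of -0.55 (SE 0.16, adjusted p = 0.0287 by DESeq2), without a call in edgeR (adjusted p = 0.102) or when young replicate 1, 3 or 4 or aged replicate 3 or 4 was left out (-0.73 to -0.40 over fits without 1 liver). Nor was this difference called within set A. Slco1b2, which takes up unconjugated bile acids, and Abcb4, which moves phospholipid into bile, had no call. Their log2 fold changes for aged against young were 0.11 (SE 0.12, adjusted p = 0.735 by DESeq2) and 0.22 (SE 0.13, adjusted p = 0.397 by DESeq2).

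In regulation, Fgfr4, the hepatocyte receptor for the ileal hormone that represses Cyp7a1, was at 286, 283, 294 and 293 normalised counts in the young livers, 388, 404, 364 and 317 in the middle-aged livers and 529.9, 473, 359 and 412 in the aged livers. The 4 young livers lay within a narrow band and all later livers were above it. It rose to 1.53 times the young level at 18 months (95% interval 1.28 to 1.83), a log2 fold change of 0.62 (SE 0.13, adjusted p = 4.50e-04 by DESeq2), called by edgeR as well (adjusted p = 0.0267) and in every fit that left out 1 liver, though not within set B (0.39, DESeq2 adjusted p = 0.436). Nr5a2, the receptor LRH-1 that promotes Cyp7a1 and Cyp8b1, was at 502, 437, 467 and 507 normalised counts in the young livers, 536, 720.0, 659.6 and 707 in the middle-aged livers and 546, 736, 585 and 543 in the aged livers. All middle-aged livers exceeded all young ones. The difference was 0.45 (SE 0.13, adjusted p = 0.0132 by DESeq2), with an edgeR adjusted p of 0.0617, and was not called without young replicate 2 or 3 or middle-aged replicate 2, 3 or 4 (0.40 to 0.54 over fits without 1 liver). Neither set alone gave this call. Fgf15, the ileal ligand of Fgfr4, had counts in 1 liver, 3 in middle-aged replicate 1.

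**Figure D5:**
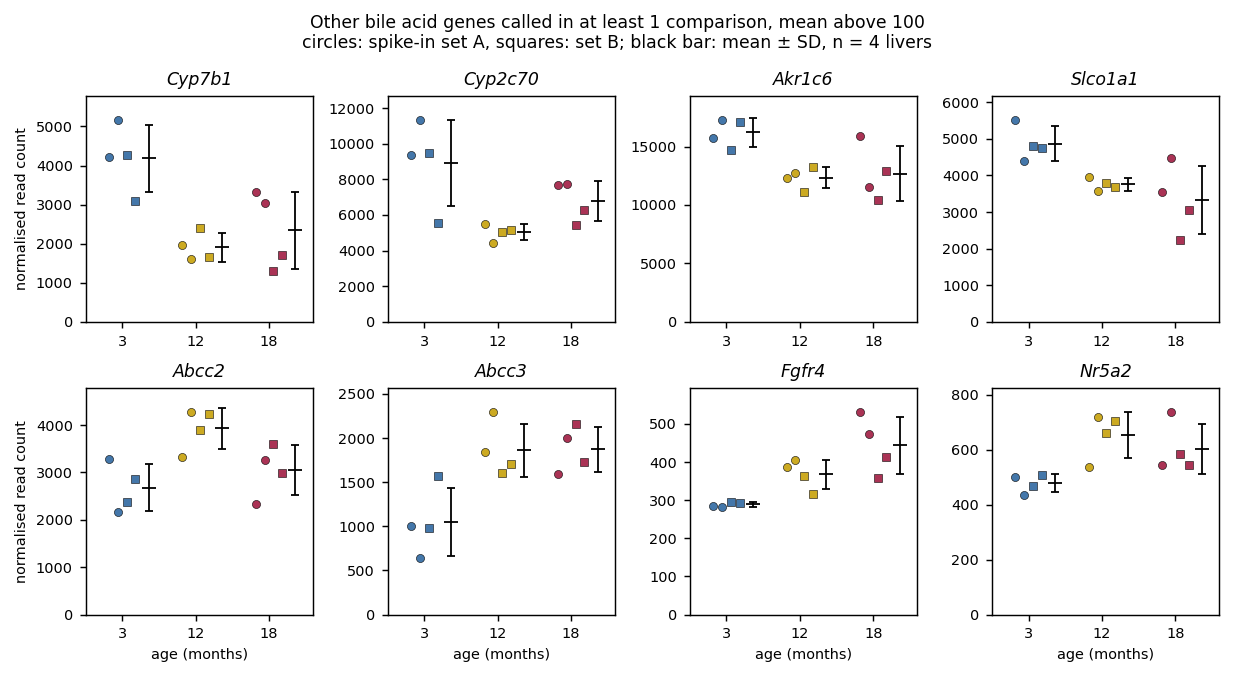
Normalised counts per liver of the 8 further bile acid genes called in at least 1 comparison with a mean above 100, at 3, 12 and 18 months (circles, set A, and squares, set B), with the mean and SD of 4 livers per age. The axes start at 0. Cyp7b1 and Cyp2c70 are lower at 12 months than at 3 months, and all later livers lie above the young ones for Fgfr4.

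Among the marker lists, red cell transcripts had the largest median log2 fold change for aged against young, -1.83 over 5 genes. Led by Hbb-bs, a beta-globin gene, they summed to 2421 to 7879 CPM in young, 1388 to 5518 in middle-aged and 1031 to 2260 in aged livers, with 2 of 5 called lower by DESeq2 for aged against young, where 1.71% of all genes were. edgeR called 0 of them, all 5 with an unadjusted p under 0.05, and limma-voom called 1. Of the Kupffer cell, stellate cell and endothelial lists, led by Clec4f, Dcn and Clec4g, at most 1 gene was called in a comparison, and their summed levels overlapped between all ages. The pericentral list led by Cyp2e1 had 1 of 8 genes called lower for aged and for middle-aged against young livers, and the periportal list led by Ass1 had 0 of 8. No hepatocyte or ileal marker was called, and of the bile duct markers 1 was called higher in aged livers against each of the other ages. Of all genes, 1.87% were called higher for aged against young and 0.537% for aged against middle-aged. The part of these cells and zones in the bile acid genes was not tested.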

How the data were processed

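Total RNA of mouse liver was sequenced in 12 libraries, each from 1 animal per the labels. The authors deposited whole-number read counts per gene, not normalised. Per the submitters' processing notes, STAR 2.5.2b, SAMtools 1.9 and featureCounts were among the tools and mm10 (GRCm38) was the build. Annotation release and strand setting are not given in the sources used here. The labels describe RNA extraction for young and old livers only, the design text gives 3 replicates where the titles give 4, and the study's methods cite a public atlas for RNA-seq of 3 ages, so the origin of these libraries is uncertain. Symbols and positions came from GENCODE M21 (GRCm38), which held 53274 of the 53465 gene identifiers. All 12 columns matched a sample title. The 92 spike-in rows, 1.59 to 10.6% of all counts per library, were left out of tests.

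The 28449 genes with at least 1 count were fitted with DESeq2 1.42.0 (R 4.3.3) on all 12 libraries with age as the only term, by Wald tests between ages, a likelihood ratio test over the 3 ages, median-of-ratios size factors, default independent filtering and Benjamini-Hochberg adjustment over all genes tested, with a threshold of 0.05. Normalised counts are counts divided by these factors. Intervals are 95% Wald intervals of the fold change between ages, with standard errors from the variation between these livers. They do not span the range of single livers. Ratios and relations used log2(normalised count + 1) and two-sided exact permutation. As alternatives, the quasi-likelihood test of edgeR 4.0.16 and voom in limma 3.58.1 (libraries weighted by quality) replaced DESeq2, size factors came from TMM or from total gene counts, genes were kept with 10 or more counts in 4 or more libraries, and independent filtering was turned off. Further fits used a replicate block, the spike-in set as covariate or as separate fits, only the 2 ages compared, a pseudocount of 0.5, and leaving out each library. The test of the difference between spike-in sets was added after seeing the data. Tests on simulated data gave false calls above the nominal share for DESeq2 and below it for edgeR.

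The 10 genes and all lists were chosen with earlier results of these data known. Named were all 10 genes, further bile acid genes with a DESeq2 call, with Abcb4 and Slco1b2 whatever their values, Arntl and Dbp, Alb and the highest gene of each marker list, and the 3 genes most correlated with Cyp7a1 and with Nr0b2. Hsd3b7, Slc51a and Fgf15 were named after their values were seen. Promoter windows came from RefSeq (GRCm38.p6).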

Additional observations from a re-analysis of the deposited data

Results flagged for a closer look

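Of 72 groups of 4 livers examined with Dixon's test, 3 held a liver far from the others, and chance flags about 1 in 20. In the aged livers Cyp7a1 was low in replicate 1 at 365 normalised counts against 818 to 852 in the rest, a gap of 0.930 of the group's range. The same liver was high for the log2 ratio of Cyp8b1 to Cyp7a1, at 3.79 against 2.36 to 2.52, a gap of 0.887. It was also low for Slco1b2, at 8969.9 against 12032 to 12347 normalised counts, a gap of 0.907. Nr0b2 was highest in that liver at 548 normalised counts.

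Age differences that were not alike in the spike-in sets were tested as an interaction chosen after seeing the data, with adjustment over all genes. For Nr1h4, middle-aged against young, the log2 fold change of set B minus that of set A was -0.84 (DESeq2 adjusted p = 0.0352). For Slc10a1, aged against middle-aged, it was 0.90 (DESeq2 adjusted p = 0.0432). For Cyp7b1, aged against middle-aged, it was -1.28 (DESeq2 adjusted p = 0.00445), with 0.84 in set A and -0.43 in set B.

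The synthetic spike-in RNAs, which no comparison used, took at least 1.59% of all counts in every library, and 10.6% in young replicate 2.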

How the results depend on the processing

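The count of 0 of 10 genes called held in every alternative except the following. Within set A it was 1 for middle-aged against young (Nr1h4). Within set B it was 1 for aged against young (Slc10a1), 1 for middle-aged against young (Nr0b2), and 2 for aged against middle-aged and across the 3 ages (Nr0b2 and Slc10a1). Over all genes, DESeq2 called 251 within set A for middle-aged against young. Within set B it called 479 and 306 for aged and middle-aged against young, 306 for aged against middle-aged and 637 across the 3 ages. Leaving out 1 library gave 0 to 1 for middle-aged against young and for the 3 ages together, with 1 in each case without young replicate 1 (Nr0b2), and 0 in all other cases. Without young replicate 1, 840 and 806 of all genes were called in these 2 cases. The cause of these exceptions was not tested. Each set holds 2 livers per age, which limits these fits, and no count was depth-limited for the 10 genes, whose lowest value was 117 normalised counts.

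No ratio or relation passed the threshold in an alternative, but the ratios could not have done so when assigned within spike-in sets (smallest p 0.0556) or by sign flips of same-numbered livers (smallest p 0.125), and some point estimates changed sign. Leaving out 1 library, the ratio of Cyp7a1 to Cyp27a1 for aged against young ranged from -0.54 to 0.054, that of Slc10a1 to Abcb11 for aged against middle-aged from -0.23 to 0.037 and for aged against young from -0.048 to 0.22, and the relation of Cyp7a1 and Nr0b2 from -0.023 to 0.40. With the means of age and spike-in set removed that relation was -0.44 against 0.23.

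Total gene counts as size factors moved the median gene by 0.12 for aged against young and 0.11 for middle-aged against young on the log2 scale. Over all genes, edgeR called 172, 280, 13 and 234 genes where DESeq2 called 484, 727, 117 and 865 (aged against young, middle-aged against young, aged against middle-aged, and 3 ages), and limma-voom called 356, 702, 58 and 667.

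Replicate numbers belong to different animals, and the deviations of same-numbered livers correlated by -0.30 to 0.16, no library correlating best with its own number, so they were not taken as pairs. With the replicate block DESeq2 again called 0 of the 10 genes in each comparison, and 655, 385, 426 and 451 of all genes. Among the further genes it ended the call of Nr5a2 for middle-aged against young (adjusted p = 0.0519) and added Akr1c6 for aged against young (adjusted p = 0.0415).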

Other observations

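A few further bile acid genes were picked for description after their values were seen. Scp2, the sterol carrier protein whose thiolase completes side chain shortening, was the most abundant gene of the synthesis list. It was at 41806 to 45504 normalised counts in young, 34405 to 39563 in middle-aged and 34070 to 41605 in aged livers. Both later ranges lay below the young one, where ranges of 16% (middle-aged) and 7.53% (aged) of all genes tested did not overlap the young. DESeq2 with age as the only term on all 12 libraries did not call it. With the spike-in set as covariate it was called for both later ages against young, and some other alternatives also called it. The ileal bile acid uptake gene Slc10a2 was detected in every liver, at 183 to 210.1 normalised counts in young, 183 to 295 in middle-aged and 139 to 215 in aged livers. Klb, the co-receptor of Fgfr4, was at 178 to 282 normalised counts in young, 313 to 372 in middle-aged and 165 to 358 in aged livers, the middle-aged range lying above the young one without a call (DESeq2 adjusted p = 0.133). Nr1i3, the xenobiotic receptor CAR, was at 39.1 to 89.8 normalised counts in young and 89.6 to 106 in aged livers (DESeq2 adjusted p = 0.0836).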
